A study of Homo sapiens with 70 samples.

Results

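The genes described here are 10 genes of the immediate early response: the zinc finger factors EGR1, EGR2, EGR3 and EGR4, their corepressors NAB1 and NAB2, the orphan nuclear receptors NR4A1, NR4A2 and NR4A3, and SRF, the factor that drives many immediate early promoters. They were chosen by name as a family and a pathway, not by their values, and all 10 were found among the 44503 genes of each count table. Poly(A) RNA was sequenced in 70 libraries of 3 experiments. In the HMGA1 experiment, IMR90 cells, diploid fibroblasts from human fetal lung, carried pLNCX2 ER:HRAS G12V, a mutant HRAS joined to an oestrogen receptor domain, and either pMSCV miR v (the empty miR30 vector) or pMSCV miR shHMGA1. Its 4 groups of 8 libraries were Grow (vector, no 4OHT), Grow-shA1 (shHMGA1, no 4OHT), OIS (vector, 6 days of 100 nM 4OHT, which switches the fusion protein on and leads to oncogene-induced senescence) and OIS-shA1 (shHMGA1 with the same treatment). In the CEBPB and p53 experiment, the same ER:HRAS G12V fibroblasts carried a pSuper vector, empty or with shCEBPB, together with pMSCV miR v or pMSCV miR p53. Its 5 groups of 5 libraries were Grow-v-v (both vectors empty, day 0) and, after 6 days of 4OHT, OIS-v-v (both vectors empty), OIS-shCEBPB with the CEBPB hairpin, OIS-shp53 with the p53 hairpin and OIS-shCEBPB-shp53 with both. In the H1299 experiment, 7 libraries of H1299, a line from a non-small cell lung carcinoma, were set against 6 of H1299-shA1 with pMSCV miR shHMGA1, and neither group was given 4OHT. The fibroblasts were pools of retrovirally transduced cells, each hairpin is a single design, and Grow cells were not exposed to 4OHT, so that the drug and the activity of the fusion protein cannot be told apart.

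Immediate early genes are transcribed within minutes of a growth factor or stress signal, without new protein synthesis. RAS signals through RAF and MEK to ERK, which phosphorylates ELK factors bound beside SRF on a short element, the CArG box, of promoters such as those of EGR1, EGR2 and SRF itself. EGR proteins in turn switch on NAB2, and NAB1 and NAB2 bind EGR1, EGR2 and EGR3 and restrain them. The NR4A receptors bind DNA without a known hormone, and their promoters respond to cyclic AMP through CREB as well as to calcium and ERK. The induction is brief in most cells, and the senescent libraries here were taken 6 days after 4OHT was added.

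On hg19, EGR1 (ENSG00000120738) lies on chromosome 5 from 137801179 to 137805004, EGR2 (ENSG00000122877) on chromosome 10 from 64571756 to 64679660 and EGR4 (ENSG00000135625) on chromosome 2 from 73518058 to 73520833. NAB1 (ENSG00000138386) lies on chromosome 2 from 191511472 to 191557492 and NAB2 (ENSG00000166886) on chromosome 12 from 57482677 to 57489259. NR4A1 (ENSG00000123358) lies on chromosome 12 from 52416616 to 52453291, NR4A2 (ENSG00000153234) on chromosome 2 from 157180944 to 157198860, NR4A3 (ENSG00000119508) on chromosome 9 from 102584137 to 102629173 and SRF (ENSG00000112658) on chromosome 6 from 43139037 to 43149243. Counting took exons without regard to strand and left out fragments that lay on more than 1 gene. Of the exonic bases of NR4A1, 10.7% overlapped its antisense gene NR4A1AS, and for EGR3, NAB1 and NAB2 the overlap with other genes was 3.4%, 4.0% and 2.4%, so that fragments in those stretches were lost. The other 6 genes overlapped no other counted gene.

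Promoter windows of these genes were searched for the SRF element. RefSeq windows of 300 bases (GRCh38.p14, 250 before to 50 after a start) were found for 8 of the 10 genes, 14 windows in all; NR4A2 and EGR3 had no entry. The CArG box, a pair of C and a pair of G around 6 bases of A or T, was searched on both strands. It lay in windows of EGR1, EGR2 and SRF, that is in 3 of the 14 windows against 1.29% of 35093 windows of all genes. These 3 genes were named above as carriers of the element, so the share is no independent result. The following stretches are given 5′ to 3′ on the strand of the gene, with the CArG boxes in capitals, and were placed on hg19 by exact match, EGR1 at chr5:137801048-137801109 (plus strand), EGR2 at chr10:64576173-64576212 (minus strand) and SRF at chr6:43138962-43139006 (plus strand); none overlapped an annotated exon.
EGR1: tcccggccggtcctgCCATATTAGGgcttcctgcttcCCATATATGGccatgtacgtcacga
EGR2: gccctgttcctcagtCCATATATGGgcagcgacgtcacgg
SRF: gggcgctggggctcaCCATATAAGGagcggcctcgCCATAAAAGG
The EGR1 window and the SRF window shown held 2 CArG boxes each and the EGR2 window 1. The letters TGACG, the core of the cyclic AMP response element that CREB binds, were also searched on both strands and were far more common, in 24.5% of all windows and in 8 of the 14 windows of these genes. Of the NR4A genes, NR4A1 and NR4A3 had windows, and the core lay in that of NR4A3, with 4 matches. Of these, 3 lie in the stretch shown here in capitals (chr9:102584043-102584103, plus strand). Of the 2 matches in the EGR4 window, that outside annotated exons is shown at chr2:73520834-73520868 (minus strand).
NR4A3: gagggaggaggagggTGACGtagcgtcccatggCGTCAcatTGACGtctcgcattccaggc
EGR4: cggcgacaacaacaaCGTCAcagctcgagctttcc
No window of these genes held the full element TGACGTCA, which was in 1.85% of all windows and contains the core on each strand. The EGR site GCGTGGGCG was found in 2 overlapping windows of NAB1 and in 0.789% of all windows. A match describes the letters in these windows and not binding, and the windows of NR4A1 and NAB2 held none of these motifs. Sequence outside the windows was not searched, so a gene without a match is not shown to lack a motif.

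Total counts ran from 1903607 to 22136571 per library in the HMGA1 experiment, from 14544053 to 24890797 in the CEBPB and p53 experiment and from 17747670 to 23649765 in H1299. The lowest total was that of OIS replicate 4, where NR4A1 had 9 counts and EGR4 had 2, and values without it are given where a call or the overlap of the EGR4 or NR4A2 ranges changed. The targets HMGA1 and CEBPB fitted the labels: HMGA1 was lower in every shA1 library than in every control library of the same state, as was CEBPB in the shCEBPB libraries (log2 fold changes from -3.79 to -2.31). HRAS counts cannot separate the transgene from the endogenous gene and were 1613 ± 91.6 CPM in Grow and 1483 ± 212 CPM in OIS (SD, n = 8), against 38.7 ± 1.40 CPM in H1299 (SD, n = 7), whose table was normalised separately. CPM are counts per 1000000 of a library's total, after scaling of the totals by TMM. The 5 fibroblast markers (COL1A1, COL1A2, COL3A1, PDGFRA and THY1) summed to 34200 to 42500 CPM in Grow but 3360 to 4570 CPM in OIS, and to 1.69 to 2.49 CPM in H1299. Epithelial markers summed to 817 to 1130 CPM in H1299 and at most 122 CPM in fibroblasts, and the endothelial and leukocyte markers measured to at most 2.12 and 1.42 CPM in any library. In such bulk libraries, fewer cells that express a gene and less RNA per cell cannot be told apart. In the CEBPB and p53 experiment, replicates 1 to 3 and replicates 4 and 5 formed separate sets in every group, so the values within each set are given for every gene called pooled, with the replicate block or in either set; the labels do not say what sets them apart, and differences between the sets were not tested. The labels state 6 biological replicates per condition, and the study's methods speak of biological replicates and give 8 per condition, whereas the groups hold 5 to 8 libraries. Since these statements differ, an n of 8 or of 7 counts libraries that may not all be separate cultures.

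The first comparison asks which of the genes were set to another level in senescence, and the NR4A genes differed among themselves. In OIS libraries all 4 EGR genes were higher than in Grow libraries, from 3.59-fold for EGR2 to about 2 orders of magnitude for EGR4, while NR4A1 and NR4A2 were lower and NR4A3 higher. NAB1 rose slightly and SRF fell slightly, and NAB2 did not pass the test. Of the 10 genes, 6 were called higher and 3 lower by edgeR's quasi-likelihood test at a Benjamini-Hochberg adjusted p under 0.05, in a comparison that called 9945 of 13304 genes (74.8%), so the number called is itself no mark of these genes. The summed fibroblast markers fell between the same groups, and their part in these results was not tested.

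EGR1, the best known factor of the family, had 30.1, 33.2 and 37.0 CPM (lowest, median and highest) in Grow libraries and 142, 156 and 174 CPM in OIS libraries. The groups lay far apart, with a change of 2.27 on the log2 scale (SE, the standard error, 0.05, edgeR adjusted p = 1.32e-24). EGR2, known from hindbrain and Schwann cell development, went from 1.84, 2.25 and 4.08 CPM to 7.29, 9.55 and 10.7 CPM, a change of 1.85 on the log2 scale (SE 0.14, edgeR adjusted p = 7.51e-13). EGR3 (ENSG00000179388, chromosome 8 from 22545172 to 22550815), which acts in muscle spindles and lymphocytes, went from 0.389, 1.43 and 2.33 CPM to 9.84, 12.3 and 14.3 CPM, with a change of 3.16 on the log2 scale (SE 0.18, edgeR adjusted p = 1.38e-15). The ranges of the groups did not overlap for any of these 3 genes. How many of all genes separate in this way was not counted, here or in the comparisons below, so separation is not read as a mark of these genes.

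EGR4, the member of the family that lacks the site bound by NAB proteins, was close to absent in growing cells. Of the 8 Grow libraries, 5 had no count and the others had 1, 1 and 2 counts, so that all 8 together held 4. OIS libraries held 2 to 129 counts and 441 in all, at 0.976, 2.69 and 6.39 CPM (lowest, median and highest). The ratio of the pooled levels was 115, with an exact 95% interval of 44.8 to 425 that covers counting error only. In the test its adjusted p was 4.15e-13 (edgeR), and its fitted fold change depends on the prior count and is not used.

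The NR4A receptors went in opposite directions. NR4A1 had 13.3, 22.7 and 33.8 CPM in Grow and 4.39, 9.23 and 13 CPM in OIS libraries, a change of -1.27 on the log2 scale (SE 0.16, edgeR adjusted p = 2.54e-08). NR4A2, known from the development of dopamine neurons, had 5.11, 12.6 and 17.2 CPM and 1.44, 2.21 and 4.88 CPM, a change of -2.45 on the log2 scale (SE 0.21, edgeR adjusted p = 2.39e-11). NR4A3 had 7.59, 11.6 and 18.1 CPM and 28.3, 30.7 and 43.0 CPM, a change of 1.46 on the log2 scale (SE 0.11, edgeR adjusted p = 1.03e-12). None of the 3 overlapped between the groups, although Grow libraries spread widely for NR4A1 and NR4A2: Grow replicate 8 held the lowest value of both. With any 1 of the 16 libraries left out, the log2 fold changes stayed between -1.36 and -1.21, between -2.56 and -2.35, and between 1.38 and 1.53.

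The corepressors and SRF moved little. NAB1 had 75.9 ± 8.69 CPM in Grow and 90.7 ± 8.64 CPM in OIS (SD, n = 8), with a log2 fold change of 0.27 (95% interval 0.14 to 0.40, edgeR adjusted p = 0.00035) and overlapping groups. NAB2 had 49.1 ± 3.62 and 46.5 ± 5.53 CPM and a log2 fold change of -0.03 (95% interval -0.15 to 0.10, edgeR adjusted p = 0.709), so that a rise of the size of those of the EGR genes lay outside its interval. SRF had 128 ± 6.86 and 105 ± 11.5 CPM, a change of -0.24 on the log2 scale (SE 0.05, edgeR adjusted p = 0.000179). With library sizes alone the median log2 fold change of all genes moved from 0.03 to 0.22 and the share of higher calls from 51.9% to 66.2%, NAB2 was then called higher (log2 fold change 0.16, edgeR adjusted p = 0.0146), and SRF was no longer called (-0.05). These small changes therefore depend on the scaling, while those of the EGR and NR4A genes exceed the shift of the median.

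**Figure D1:**
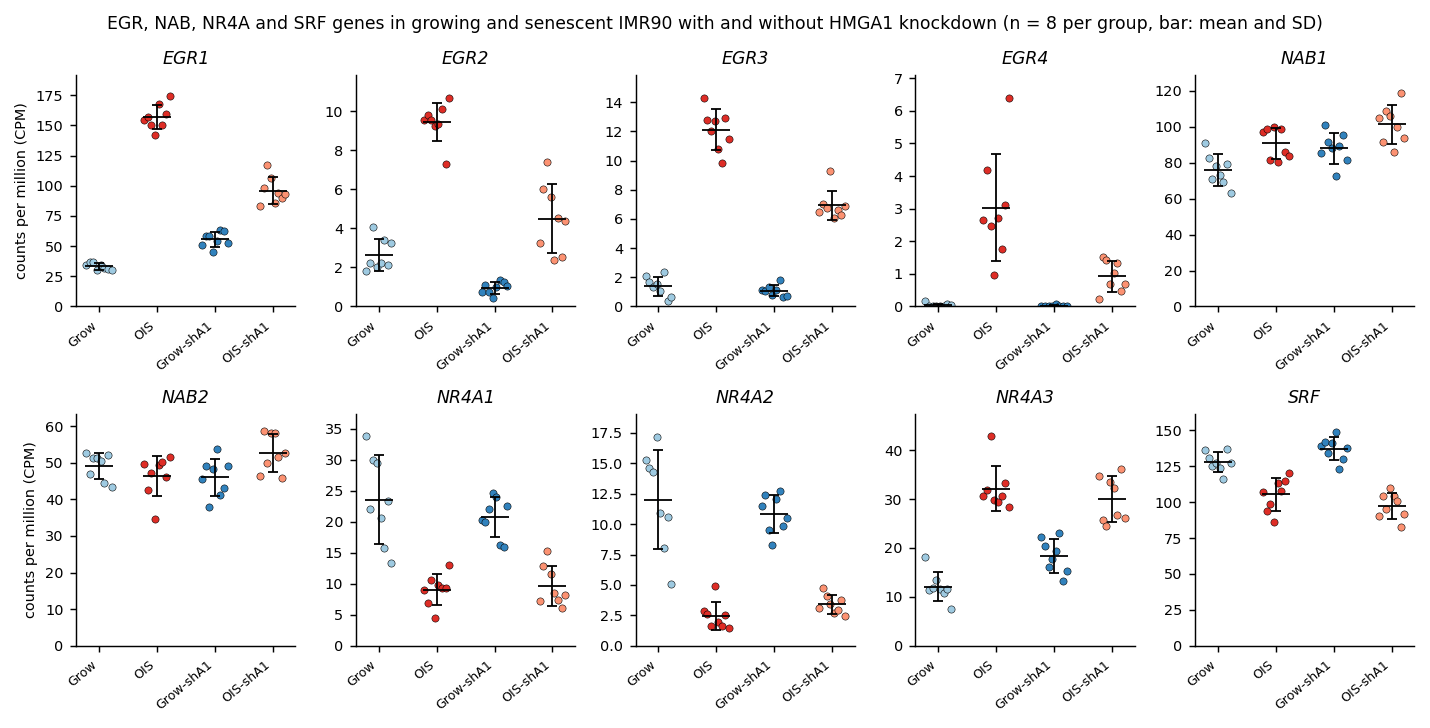
Each point is the level of a gene in 1 library of the HMGA1 experiment in CPM (vertical axis, linear, starting at 0), with mean and SD of 8 libraries per group. The 4 EGR genes and NR4A3 are higher in OIS than in Grow, NR4A1 and NR4A2 are lower, and EGR1 is raised by shA1 in growing cells but lowered by it in OIS cells.

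Levels per kilobase used the length of all counted exons of a gene, 7067 bases for NR4A1, 3910 for NR4A2 and 6323 for NR4A3. That length may exceed that of the transcripts present and includes stretches whose fragments were lost. Shares and sums of a family depend on it, and differences between the sums were not tested. The summed NR4A level was 8.31 ± 2.40 CPM per kb in Grow and 6.98 ± 0.74 CPM per kb in OIS (SD, n = 8). Within that sum, the share of NR4A3 went from 23.5% ± 3.35 to 72.6% ± 3.26, that of NR4A1 from 40.1% ± 2.74 to 18.3% ± 5.20 and that of NR4A2 from 36.4% ± 4.27 to 9.10% ± 4.52 (SD, n = 8). The share of NR4A3 did not overlap between the groups, with 19.3% to 28.4% across Grow libraries and 66.9% to 77.9% across OIS libraries. EGR1 made up most of the summed EGR level in both states, with 91.3% ± 1.90 in Grow and 88.8% ± 0.992 in OIS (SD, n = 8), while that sum rose from 11.6 ± 1.0 to 56.3 ± 3.86 CPM per kb.

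The CEBPB and p53 experiment gives the same contrast in other libraries, which share no sample with the first. EGR1 had 31.2, 36.5, 33.6, 38.2 and 38.2 CPM in Grow-v-v replicates 1 to 5 and 71.8, 65.4, 65.7, 114 and 94.5 CPM in OIS-v-v. It was higher in all 5 senescent libraries (log2 fold change 1.22, SE 0.15, edgeR adjusted p = 4.01e-05), by 1.0 in replicates 1 to 3 and by 1.45 in replicates 4 and 5. EGR3 went from 0.552, 0.596, 0.717, 0.820 and 0.561 CPM to 7.42, 7.85, 7.73, 11.5 and 8.75 CPM, a change of 3.73 on the log2 scale (SE 0.19, edgeR adjusted p = 2.68e-08) that was 3.61 and 3.86 within the sets. EGR2 did not pass the test pooled (log2 fold change 0.73, 95% interval -0.01 to 1.48, edgeR adjusted p = 0.101). It was near 0 in replicates 1 to 3 (-0.05) and 1.56 in replicates 4 and 5 (edgeR adjusted p = 0.000965), since the OIS-v-v values were 1.35, 1.96, 1.93, 5.16 and 3.38 CPM. EGR4, with 70 counts in OIS-v-v and 29 in Grow-v-v libraries, did not pass the count filter of the pooled fits of this experiment. Of those 29, 21 came from replicate 5. It was tested in 4 alternative fits of this contrast and called in 0 of them (adjusted p of 0.141 to 0.556, edgeR or DESeq2).

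The NR4A genes moved in the same directions as in the HMGA1 experiment. NR4A3 had 10.3, 12.8, 11.6, 5.26 and 4.63 CPM in Grow-v-v and 58.5, 61.8, 55.9, 47.5 and 48.2 CPM in OIS-v-v libraries, a change of 2.60 on the log2 scale (SE 0.25, edgeR adjusted p = 3.73e-06), 2.34 and 3.28 within the sets. NR4A2 had 11.1, 12.3, 10.5, 4.71 and 4.49 CPM against 2.42, 2.08, 1.52, 2.66 and 2.47 CPM, a change of -1.95 on the log2 scale (SE 0.30, edgeR adjusted p = 0.0002). Its fall was larger in replicates 1 to 3 (-2.49) than in replicates 4 and 5 (-0.83). NR4A1 had 22.2, 25.1, 27.2, 19.7 and 25.7 CPM against 15.3, 13.2, 12.8, 14.2 and 16.4 CPM, a change of -0.73 on the log2 scale (SE 0.11, edgeR adjusted p = 0.000181), -0.85 and -0.56 within the sets. SRF fell by 0.26 on the log2 scale (edgeR adjusted p = 0.0107), with -0.35 in replicates 1 to 3 (edgeR adjusted p = 2.44e-06) and -0.14 in replicates 4 and 5 (edgeR adjusted p = 0.442). NAB1 (0.30) and NAB2 (0.03) did not pass the test pooled. NAB1 stood at 0.02 in replicates 1 to 3 (edgeR adjusted p = 0.755) and at 0.69 in replicates 4 and 5, where it was called (edgeR adjusted p = 0.00484). Of 9 genes tested, 3 were called higher and 3 lower, where 45.8% of all genes tested were called, or 66.8% within replicates 1 to 3 and 40.5% within replicates 4 and 5. NR4A3 again made up most of the NR4A level per kb in senescent libraries, 76.6% ± 3.69 against 19.4% ± 4.09 in Grow-v-v (SD, n = 5), and here the summed level was also higher, at 11.2 ± 0.872 against 7.01 ± 1.74 CPM per kb.

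**Figure D2:**
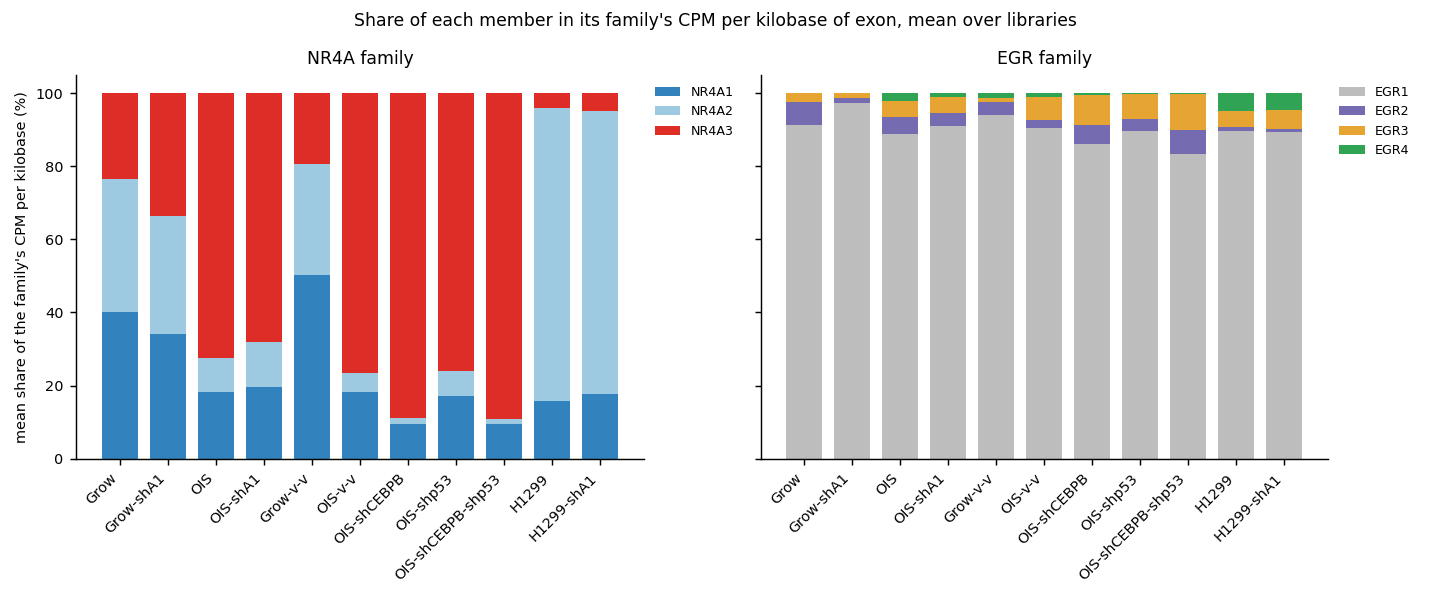
Stacked bars give the mean share (vertical axis, percent) of each gene in the summed CPM per kilobase of the NR4A family (left) and the EGR family (right) for all 11 groups, which come from 3 separately normalised tables. NR4A3 holds 68.0% to 89.1% in the senescent groups, NR4A2 holds 77.6% to 80.1% in the H1299 groups, and EGR1 holds at least 83.2% in every group.

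The effect of HMGA1 knock-down was measured in each state, and for EGR1 its sign differed. In OIS-shA1 libraries the 4 EGR genes were lower than in OIS libraries, NR4A2 and NAB1 were higher, and the other 4 genes did not pass the test; the comparison called 35.9% of all genes tested. EGR1 had 83.3, 93.5 and 117 CPM in OIS-shA1 libraries (lowest, median and highest), all below the OIS range, a change of -0.71 on the log2 scale (SE 0.06, edgeR adjusted p = 2.42e-10). EGR3 had 6.03, 6.69 and 9.29 CPM, also below every OIS library (log2 fold change -0.81, SE 0.09, edgeR adjusted p = 1.28e-07). EGR2 had 2.37, 4.45 and 7.38 CPM and was below the OIS range in 7 of 8 libraries (log2 fold change -1.06, SE 0.16, edgeR adjusted p = 9.54e-06). EGR4 held 137 counts in all against 441 in OIS, with 0.235, 0.850 and 1.53 CPM (log2 fold change -1.78, SE 0.29, edgeR adjusted p = 2.07e-05), and 4 of 8 libraries lay below the OIS range. The lowest OIS value was that of the shallow replicate 4, and without it all 8 lay below, against a lowest OIS value of 1.77 CPM. EGR4 still exceeded Grow-shA1, which held 1 count in all 8 libraries, by a pooled ratio of 125 (exact 95% interval 22 to 4960, counting error only).

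NR4A2 had 2.47, 3.27 and 4.75 CPM in OIS-shA1 libraries, within the OIS range, with a change of 0.65 on the log2 scale (SE 0.18, edgeR adjusted p = 0.00642). The highest OIS value, 4.88 CPM, was 10 counts in the shallow replicate 4, and without it the log2 fold change was 0.70 and 6 of 8 libraries lay above the OIS range. SRF (-0.13, edgeR adjusted p = 0.103) was called without that library, at -0.16. NR4A1 (0.02, 95% interval -0.31 to 0.35) and NR4A3 (-0.11, 95% interval -0.29 to 0.07) did not pass the test. NAB1 was called higher by 0.17 on the log2 scale (edgeR adjusted p = 0.0331), and this call was lost in 8 of 16 fits that left out a library, where the adjusted p reached 0.0901, and in 4 of 9 other alternatives. With library sizes alone, the share of higher calls over all genes fell from 52.3% to 27.8%.

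In growing cells, where HMGA1 knock-down called 29.9% of all genes tested (49.4% of them higher, or 60.3% with library sizes alone), EGR1 instead was higher with shA1, at 44.7, 56.0 and 63.5 CPM. All 8 Grow-shA1 libraries lay above all 8 Grow libraries (log2 fold change 0.74, SE 0.06, edgeR adjusted p = 1.43e-09). EGR2 was lower here too, with 0.441, 1.01 and 1.37 CPM, below every Grow library (log2 fold change -1.46, SE 0.22, edgeR adjusted p = 8.36e-06). NR4A3 had 13.3, 18.6 and 23.1 CPM, a change of 0.62 on the log2 scale (SE 0.13, edgeR adjusted p = 0.000394), and 4 of 8 libraries were above the Grow range. NAB1 was higher by 0.22 (edgeR adjusted p = 0.0122), and EGR3 (-0.32, 95% interval -0.90 to 0.26), NAB2, NR4A1, NR4A2 and SRF did not pass the test. HRAS itself was higher in Grow-shA1 than in Grow (log2 fold change 0.20, edgeR adjusted p = 0.0041) and lower in OIS-shA1 than in OIS (-0.21, edgeR adjusted p = 0.0139), the same signs as those of EGR1, and its part in the EGR1 result was not tested. The summed fibroblast markers were also lower in Grow-shA1, at 24400 to 30200 CPM, whereas in OIS-shA1 they lay between 3280 and 4650 CPM, close to the OIS range, and their part was likewise not tested.

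The interaction term, the effect of shA1 in OIS minus its effect in Grow, was fitted over all 32 libraries and tests the difference between the states directly. It was -1.46 for EGR1 (SE 0.09, edgeR adjusted p = 1.3e-15), against 23.6% of 13903 genes called. Terms were also called for NR4A3 (-0.74, edgeR adjusted p = 0.000715), NR4A2 (0.80, edgeR adjusted p = 0.0231), SRF (-0.23, edgeR adjusted p = 0.0245) and NAB2 (0.25, edgeR adjusted p = 0.047). The term for NAB2 was no longer called in 19 of 32 fits that left out a library, the fit without OIS replicate 4 among them (adjusted p = 0.0634). EGR2 (0.40, 95% interval -0.19 to 0.98) and EGR3 (-0.49, 95% interval -1.04 to 0.06) gave no called term. For EGR4, with 1 count in Grow-shA1 and 4 in Grow libraries, the term could not be estimated to any useful precision. For HRAS the interaction was -0.41 (edgeR adjusted p = 0.000552). With library sizes alone, the median term of all genes moved from -0.01 to -0.13 and the share of positive calls from 51.7% to 20.4%.

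**Figure D3:**
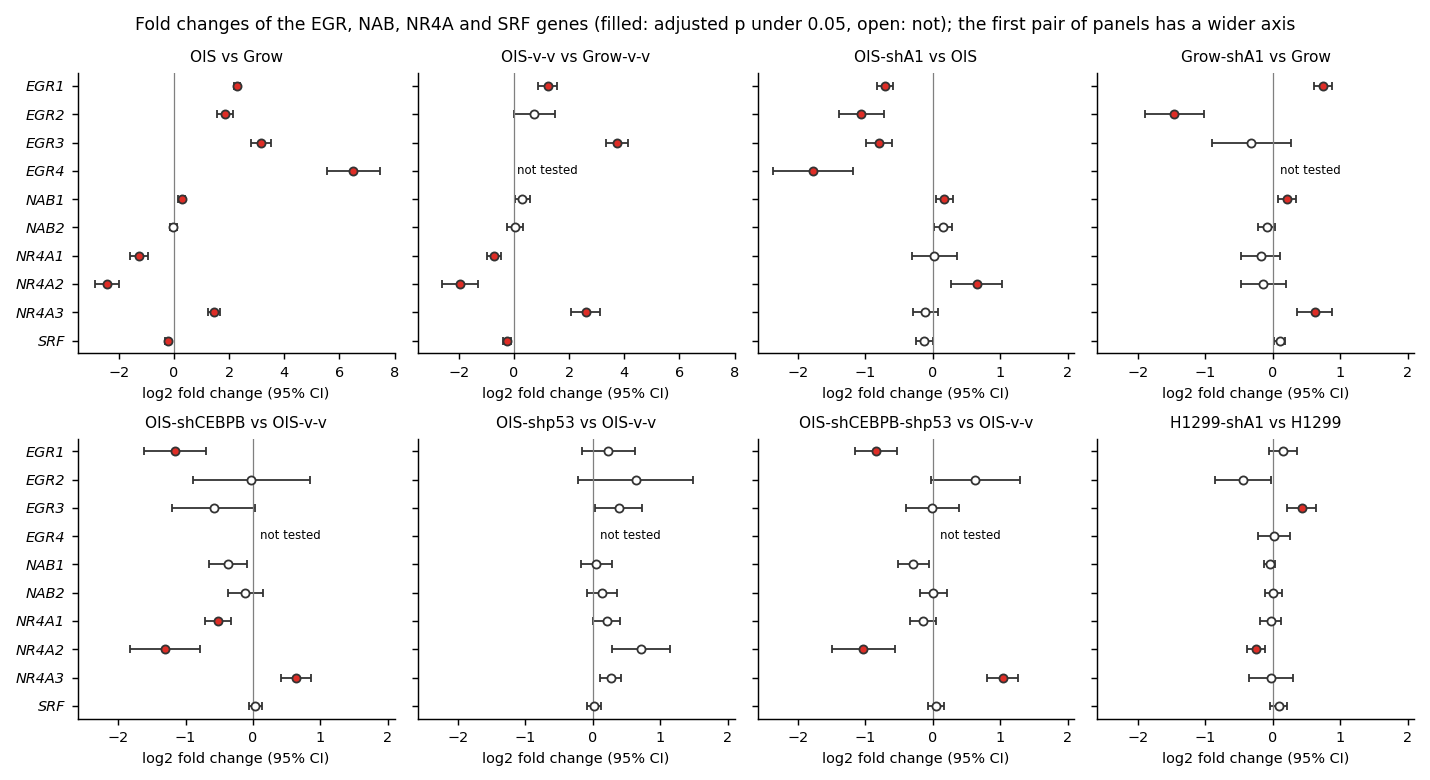
Points give the log2 fold change of each gene in 8 comparisons with 95% intervals from edgeR (horizontal axis; the first pair of panels has a wider range), filled where the adjusted p was under 0.05. EGR1 stands at -0.71 for shA1 in OIS and at 0.74 for shA1 in Grow, and in the CEBPB knock-down EGR1 and NR4A2 stand to the left of 0 and NR4A3 to the right.

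The knock-downs of CEBPB and p53 were each compared with OIS-v-v, a control group that the 3 comparisons share. CEBPB codes for C/EBPβ, a leucine zipper factor that drives inflammatory genes in senescence, and p53 is one of the factors of the arrest. With shCEBPB, EGR1, NR4A1 and NR4A2 were lower and NR4A3 was higher, and the other 5 genes tested did not pass. Of all genes tested, 17.1% were called, 53.2% of them higher, or 70.9% with library sizes alone. EGR1 had 30.9, 29.7, 26.1, 48.1 and 50.0 CPM in OIS-shCEBPB replicates 1 to 5, with a change of -1.16 on the log2 scale (SE 0.21, edgeR adjusted p = 0.00254), -1.24 in replicates 1 to 3 and -1.08 in replicates 4 and 5. Replicates 1 to 3 lay below Grow-v-v replicates 1 to 3 (31.2 to 36.5 CPM), and replicates 4 and 5 above Grow-v-v replicates 4 and 5 (38.2 CPM in both). NR4A1 had 9.91, 9.44, 9.38, 10.4 and 11 CPM (log2 fold change -0.52, SE 0.09, edgeR adjusted p = 0.00175), -0.54 and -0.51 within the sets. NR4A2 had 0.783, 0.737, 0.611, 1.32 and 1.07 CPM, from 12 to 28 counts (log2 fold change -1.30, SE 0.24, edgeR adjusted p = 0.00246), -1.52 and -1.08 within the sets. NR4A3 had 77.3, 81.6, 70.4, 95.1 and 97.7 CPM (log2 fold change 0.64, SE 0.10, edgeR adjusted p = 0.00119), 0.37 and 1.02 within the sets. Each of these 4 genes lay outside the OIS-v-v range in all 5 libraries, and the share of all genes that did so was not counted.

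EGR3 with shCEBPB had 3.26, 4.38, 3.54, 8.37 and 9.35 CPM and did not pass the test pooled (log2 fold change -0.58, 95% interval -1.20 to 0.04, edgeR adjusted p = 0.2). Replicates 1 to 3 gave -1.03 (edgeR adjusted p = 7.54e-06) and replicates 4 and 5 gave -0.19, and with the replicate number as a block the log2 fold change was -0.64 (edgeR adjusted p = 0.00987). NAB1 stood at -0.37 (edgeR adjusted p = 0.0754 without the block and 0.000134 with it), and it was called within both sets, at -0.39 and -0.35. EGR2 (-0.02), NAB2 (-0.11) and SRF (0.03) did not pass, although NAB2 was called in replicates 1 to 3 (-0.19, edgeR adjusted p = 0.0187, against -0.03 in replicates 4 and 5). Over all genes tested, 31.9% were called with the block, 32.6% within replicates 1 to 3 and 24.6% within replicates 4 and 5. EGR4 held 12 counts in OIS-shCEBPB against 70 in OIS-v-v libraries and did not pass the count filter of the pooled fit. In replicates 4 and 5, where it did pass, it held 4 counts against 59 and was called lower (edgeR adjusted p = 6.36e-06). It was also called lower in the other 3 alternative fits that tested it, with adjusted p of 0.017 (DESeq2), 0.0396 and 0.0407 (edgeR). HRAS was also lower in OIS-shCEBPB, with 831 ± 46.3 against 1235 ± 112 CPM (SD, n = 5; log2 fold change -0.57, edgeR adjusted p = 0.000259), and its part in these results was not tested.

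With shp53 none of the 9 genes tested was called by edgeR without a block, where 4.44% of all genes tested were called. An unadjusted p under 0.05 (edgeR) was found for 4 of the 9, beside 2645 of all 13378 genes tested. DESeq2 called 2 of the 9, and its share over all genes is not given here. Same-numbered libraries always lie in the same set of replicates, so a replicate block also takes up the difference between the sets. Pairing by number beyond the sets was not tested. With the replicate block 5 genes were called higher: EGR1 (log2 fold change 0.24, edgeR adjusted p = 0.00348), EGR2 (0.66, edgeR adjusted p = 0.00796), EGR3 (0.38, edgeR adjusted p = 0.0151), NR4A2 (0.70, edgeR adjusted p = 0.00959) and NR4A3 (0.27, edgeR adjusted p = 0.00604). The same block raised the calls over all genes from 594 to 3037 (22.7%). EGR1, EGR2 and EGR3 passed in replicates 1 to 3 alone, at 0.28, 0.74 and 0.35 (edgeR adjusted p = 0.000827, 0.00874 and 0.0133), and stood at 0.18, 0.58 and 0.42 in replicates 4 and 5 (edgeR adjusted p = 0.237, 0.119 and 0.103). NR4A1 was called in replicates 1 to 3 as well (0.31, edgeR adjusted p = 0.01, against 0.06 in replicates 4 and 5). Replicates 1 to 3 called 34% of all genes tested and replicates 4 and 5 called 5.33%. EGR4 was lower in replicates 4 and 5, with 21 counts against 59 (edgeR adjusted p = 0.0214), and was called in none of the other 9 fits that tested it. NR4A2 had 5.22, 3.49, 3.37, 2.98 and 3.18 CPM and NR4A3 had 65.3, 65.1, 64.7, 66.1 and 64.4 CPM, each above the OIS-v-v range in 5 of 5 libraries. NR4A2 was higher by 1.03 on the log2 scale in replicates 1 to 3 (edgeR adjusted p = 0.00036) and by 0.26 in replicates 4 and 5 (edgeR adjusted p = 0.587). NR4A3 was higher by 0.15 and 0.45 within the sets.

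With both hairpins, EGR1 was again lower, at 46.5, 44.7, 40.3, 48.1 and 49.1 CPM (log2 fold change -0.85, SE 0.14, edgeR adjusted p = 0.00073), -0.62 and -1.10 within the sets. NR4A2 had 1.17, 0.692, 1.05, 1.47 and 1.08 CPM (log2 fold change -1.03, SE 0.22, edgeR adjusted p = 0.00307), -1.05 and -1.0 within the sets. NR4A3 reached the highest level of the 5 groups, with 106, 102, 93.5, 129 and 126 CPM (log2 fold change 1.03, SE 0.10, edgeR adjusted p = 1.54e-05), 0.78 and 1.42 within the sets. These 3 genes were the ones called, where 33.6% of all genes tested were called, 50.9% of them higher, or 71.0% with library sizes alone. With the replicate block, EGR2 (log2 fold change 0.69, edgeR adjusted p = 0.0375) and NAB1 (-0.28, edgeR adjusted p = 0.00137) were called as well, 5 in all, where the block raised the calls over all genes from 4502 to 5806 (43.4%). Within the sets EGR2 was 1.22 and 0.12, called in the first alone (edgeR adjusted p = 7.07e-05 and 0.721), and NAB1 was -0.24 and -0.33, called in both. Replicates 1 to 3 called 53.7% of all genes tested and replicates 4 and 5 called 28.7%. EGR4 held 1 count against 59 in replicates 4 and 5 and was called lower there (edgeR adjusted p = 2.96e-06) and in the other 3 alternative fits that tested it (adjusted p of 0.00715 to 0.0232). NR4A1 (-0.15, 95% interval -0.34 to 0.04), EGR3 (-0.01), NAB2 (0.01) and SRF (0.05) did not pass. HRAS was lower here as well (log2 fold change -0.91, edgeR adjusted p = 1.6e-06), and its part was not tested.

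The share of NR4A3 in the summed NR4A level per kb was 88.9% ± 0.569 with shCEBPB, 75.9% ± 2.24 with shp53 and 89.1% ± 1.67 with both, against 76.6% ± 3.69 in OIS-v-v (SD, n = 5). The term for the interaction of shCEBPB with shp53, the effect of both hairpins minus the sum of the single effects, was called for none of the 9 genes (edgeR, unadjusted p of 0.138 or more, DESeq2 also 0), in a fit that called 0.0432% of all genes tested. For EGR1 the term was 0.08 (95% interval -0.46 to 0.63) and for NR4A2 -0.44 (-1.12 to 0.25). With the replicate block, which raised the calls over all genes from 6 to 104 (0.75%), none of the 9 was called either (edgeR, unadjusted p of 0.11 or more), and the intervals were -0.12 to 0.35 for EGR1 and -1.08 to 0.16 for NR4A2. Within replicates 1 to 3, EGR1 (0.34), EGR3 (0.55) and NR4A3 (0.25) had unadjusted p under 0.05 (edgeR adjusted p = 0.0864, 0.105 and 0.11).

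**Figure D4:**
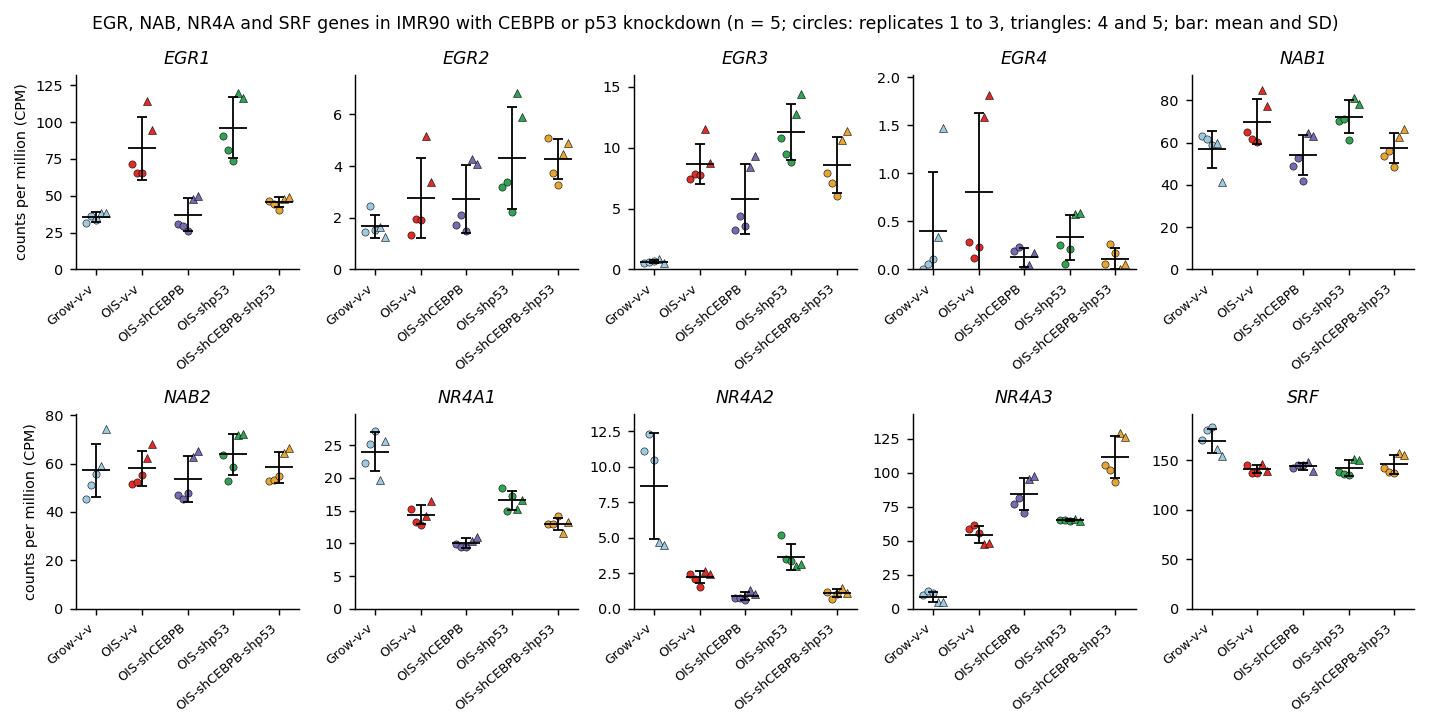
Each point is the level of a gene in 1 library of the CEBPB and p53 experiment in CPM (vertical axis, linear, starting at 0); circles are replicates 1 to 3, triangles replicates 4 and 5, and bars give mean and SD of 5 libraries. EGR1 and EGR3 lie higher in the triangles of OIS-v-v than in its circles, and NR4A3 is highest with both hairpins, from 93.5 to 129 CPM.

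H1299 cells, which carry no inducible HRAS, held a different set of these genes. Per kilobase, NR4A2 made up 80.1% ± 0.708 of the NR4A level and NR4A3 4.14% ± 0.583 (SD, n = 7), and EGR4, close to absent in growing fibroblasts, was present in every library with 48 to 74 counts. The tables were normalised separately and H1299 reads were counted singly rather than as pairs, so no test was made between the cell types. With shA1, where 15.6% of all genes tested were called, 2 of the 10 genes were called. EGR3 had 3.85, 5.21 and 5.64 CPM (lowest, median and highest) in H1299 and 5.18, 6.62 and 7.28 CPM in H1299-shA1 libraries, with 5 of 6 above the control range (log2 fold change 0.43, SE 0.10, edgeR adjusted p = 0.00771). NR4A2 had 38.2, 41.5 and 50.7 CPM and 32.8, 35.2 and 38.8 CPM, with 4 of 6 below the control range (log2 fold change -0.25, SE 0.06, edgeR adjusted p = 0.0104). Both differ in sign from the value in OIS fibroblasts (-0.81 and 0.65), a difference between experiments that was not tested. In Grow fibroblasts, also without 4OHT, the values with shA1 were -0.32 for EGR3 and -0.14 for NR4A2, and neither passed the test. EGR1 had 65.1 ± 8.29 CPM in H1299 (SD, n = 7) and 72.1 ± 13.2 CPM in H1299-shA1 (SD, n = 6), and its log2 fold change of 0.15 (95% interval -0.05 to 0.35) did not pass the test. EGR2, at 0.808 and 0.595 CPM, had a log2 fold change of -0.45 (95% interval -0.86 to -0.03, edgeR adjusted p = 0.141). For EGR4, NAB1, NAB2, NR4A1, NR4A3 and SRF the log2 fold changes lay between -0.05 and 0.09.

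Other genes of the pathway were taken from lists that were set by function. Of all genes tested, 74.8% were called for OIS against Grow, 45.8% for OIS-v-v against Grow-v-v and 35.9% for shA1 in OIS. The share was 17.1% for shCEBPB and 4.44% for shp53. Counts from the lists, here and below, were not tested against these shares. Of 20 other immediate early genes, 9 rose and 9 fell from Grow to OIS, with a median log2 fold change of 0.09 beside 0.03 for all genes tested. IER3, a survival factor and ERK substrate, rose by 2.43 and CYR61, a matrix protein gene now named CCN1, fell by 2.58, as did KLF2, a factor known from the endothelium, by 3.76. Of 16 ERK feedback and output genes, 12 were higher and 3 lower (median 0.93), among them the phosphatase genes DUSP2 (5.07), DUSP4 (2.80) and DUSP6 (2.41), the last of which removes phosphate from ERK. In OIS-v-v against Grow-v-v, 10 of these 16 were higher and the other 6 did not pass the test (median 1.17), led by DUSP4 (3.59), DUSP6 (2.77) and SPRY2 (2.02). With shA1 in OIS, 6 were higher and 4 lower, DUSP2 falling by 1.98 and SPRED1 rising by 0.68, and of the 20 immediate early genes 2 were higher and 8 lower, with FOS at -0.72, ATF3 at -0.66 and CYR61 at -0.76. For FOS, which was higher by 0.88 with shA1 in Grow, the interaction was -1.60 (edgeR adjusted p = 2.68e-05), the same sign as that of EGR1. With shCEBPB, 2 of the 20 immediate early genes were higher and 6 lower (median -0.12), and 3 of the 16 ERK genes were higher and 5 lower (median 0.05). Among these, FOSB (-0.94), IER3 (-0.87), DUSP2 (-1.73, from a mean of 1.6 CPM in OIS-v-v) and DUSP6 (-0.67) were lower and CYR61 (0.57) and ETV1 (0.53) higher. With shp53, 3 of the 20 and 1 of the 16 were lower and 0 of either list higher, and BTG2, a known p53 target, was lower by 4.30.

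Genes that SRF drives with its other cofactors, the MRTF proteins, did not rise with the EGR genes. Of 8 contractile genes, all 8 were lower in OIS than in Grow (median log2 fold change -2.41) and in OIS-v-v than in Grow-v-v (-1.92), including TAGLN (-3.96), ACTG2 (-3.93) and ACTA2 (-3.66) in the first. Among 6 SRF cofactors, MYOCD, the gene of myocardin, fell by 3.23 and MKL1, the gene of an MRTF protein, by 0.74, whereas ELK1 rose by 0.49. With shA1 in OIS, 7 of the 8 contractile genes were lower (median -0.36), with TAGLN at -1.01, CNN1 at -0.70 and TPM1 at -0.43. With shCEBPB, 3 of the 8 were higher, with ACTA2 at 0.89. The sum of the fibroblast markers fell in the same senescence contrasts, from 31500 to 45400 CPM in Grow-v-v to 8190 to 15300 CPM in OIS-v-v libraries, and its part in these values was not tested.

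Of 8 partners of NR4A receptors and regulators of CREB, 7 were tested in OIS against Grow, where 2 were higher and 3 lower, all by less than 1 on the log2 scale. CRTC3, a CREB coactivator gene, fell by 0.75, RXRB, the gene of a receptor that pairs with NR4A1 and NR4A2, fell by 0.29 and CRTC1 rose by 0.31. Of 5 genes reported as EGR1 targets, all 5 were lower in OIS than in Grow. Of all 13304 genes tested there, 4781 were called lower. PDGFA stood at -1.38, FN1 at -1.29 and TGFB1 at -0.62, against a log2 fold change of EGR1 itself of 2.27. With shA1 in Grow, where EGR1 was higher, PDGFA (-0.92), FN1 (-0.64) and TGFB1 (-0.36) were lower, and with shA1 in OIS the 5 lay between -0.28 and 0.09 and did not pass the test. The interaction was positive for these 3 genes (0.64, 0.60 and 0.45, edgeR adjusted p = 0.00414, 7.45e-07 and 0.00013), against -1.46 for EGR1. The summed fibroblast markers were also lower in OIS and in Grow-shA1 than in Grow, and their part in these values was not tested.

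**Figure D5:**
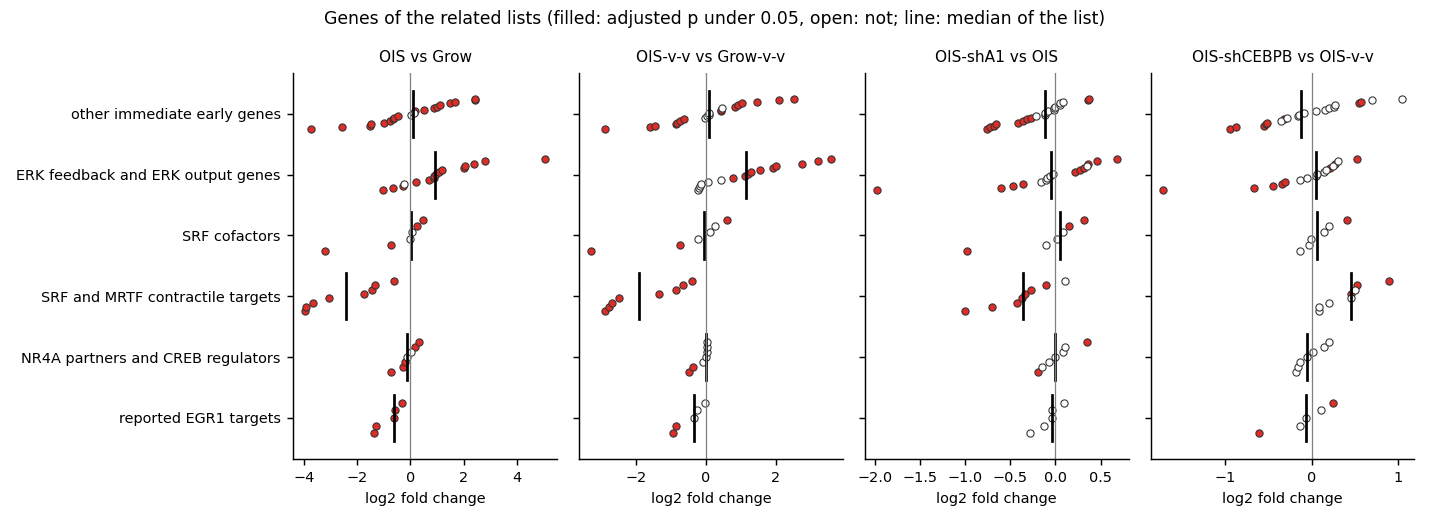
Each point is the log2 fold change of 1 gene of 6 related lists (rows) in 4 comparisons (panels, each with its own horizontal axis), filled where the adjusted p was under 0.05, and the vertical line is the median of the list. The 8 contractile genes lie to the left of 0 in both senescence contrasts, with medians of -2.41 and -1.92, while most ERK feedback genes lie to the right.

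Over the 32 libraries of the HMGA1 experiment, the genes whose log2 CPM was most like that of EGR1 were TBX3 (r = 0.971), AMPD3 (0.956), FBXO32 (0.956), DENND2B (0.955) and ENC1 (0.954). These coefficients mostly reflect the 4 group means: with the group means taken out they were 0.30 for TBX3 and 0.02 for ENC1, the lowest, and at most 0.55, for DENND2B. For NR4A1 the genes were VASN (r = 0.943), LRRC8A (0.926), GSTP1 (0.921), SLC12A4 (0.921) and NOG (0.917). With the group means taken out, these coefficients were 0.71 to 0.78. The genes were picked over the same libraries, so these values are no independent check. How many of all genes reach such values was not counted. The libraries share depth and preparation in ways the labels do not give, and the coefficients are given as a description.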

How the data were processed

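Poly(A) RNA of IMR90 and H1299 cells was sequenced from stranded libraries. The deposited files hold raw counts per gene. Per the study's methods and the file headers, the authors aligned reads with STAR to hg19, and counted exons of GENCODE genes with featureCounts (1.5.2 in the headers), taking neither multimapping nor multi-gene reads and ignoring strand. The HMGA1 table counted read pairs and the H1299 table single reads. The table of the CEBPB and p53 experiment had no header. Which library used which of the kits and sequencers is not in the labels, so that neither could enter a fit. Other assays of the study are not analysed here.

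Of 44503 gene IDs, 95.9% had a symbol, and 92 of 93 genes on the lists were matched. Each comparison was fitted on its own groups by edgeR 4.0.16 in R 4.3.3 (TMM factors, filterByExpr with a minimum count of 10, quasi-likelihood F test), with Benjamini-Hochberg adjustment over all genes tested and a threshold of 0.05. Standard errors are the log2 fold change divided by the square root of F. Interactions were fitted over all groups they involve. CPM used TMM-scaled library sizes. The fits were tested on simulated counts. Every pair of libraries in a group differed by more than counting noise (chi-square per degree of freedom of at least 1.68), so no library appeared to be a copy of another, which does not show that they are separate cultures. Which libraries are separate cultures is not in the labels, so p-values measure the spread between these libraries. Intervals from pooled counts cover counting error only.

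The main fits paired no libraries, and the replicate block was an alternative fit in every experiment. In the CEBPB and p53 experiment, the deviations from the group means of same-numbered libraries correlated by 0.13 to 0.54. Those libraries also share a set of replicates, so the correlation does not show pairing by number within a set. In the HMGA1 experiment they correlated by -0.13 to 0.13 and in H1299 by -0.15 to 0.29. Alternatives were DESeq2 1.42.0, other scaling factors, other count filters, a replicate block, a joint fit of all groups, a threshold of 0.01 and leaving out each library. The fits within replicates 1 to 3 and within replicates 4 and 5 were added after seeing the data. The 10 genes, the lists and the tests were chosen with earlier results of these data known. Named are all 10 genes, the targets HMGA1 and CEBPB with HRAS, for each list up to 3 genes with the largest change among those called at a mean of at least 1 CPM, and the 5 genes most like EGR1 and like NR4A1. The label check of the remaining targeted gene is not reported here.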

Additional observations from a re-analysis of the deposited data

Results flagged for a closer look

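Among 110 sets of libraries (10 genes in 11 groups), 13 held a library that stood apart from the rest of its group by Dixon's test, where chance gives about 1 in 20 for normally spread values. EGR4 accounted for 5 of them: Grow replicate 1 (0.153 CPM), Grow-shA1 replicate 5 (0.0622 CPM), Grow-v-v replicate 5 (1.47 CPM), H1299 replicate 5 (3.36 CPM) and H1299-shA1 replicate 3 (3.59 CPM) were each the highest of their group. The first pair rests on 2 counts and 1 count, and Grow-v-v replicate 5 on 21. For counts that low, and in groups split into sets of replicates, the rate of 1 in 20 does not hold. The 13 were therefore not weighed against it. NR4A2 was highest in OIS replicate 4 (4.88 CPM, 10 counts), in H1299 replicate 1 (50.7 CPM) and in OIS-shp53 replicate 1 (5.22 CPM). NR4A3 was highest in OIS replicate 3 (43.0 CPM) and in H1299 replicate 1 (5.46 CPM). EGR2 was lowest in OIS replicate 7 (7.29 CPM), EGR3 was highest in OIS-shA1 replicate 4 (9.29 CPM), and NAB1 was lowest in Grow-v-v replicate 5 (41.5 CPM).

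The effect of HMGA1 knock-down differed between OIS and growing cells by edgeR's interaction test for 5 genes, EGR1 (-1.46), NR4A3 (-0.74), SRF (-0.23), NAB2 (0.25) and NR4A2 (0.80), all on the log2 scale. For EGR1 the single effects had opposite signs and both were called, -0.71 in OIS and 0.74 in Grow.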

How the results depend on the processing

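Leaving out each library in turn, the number of the 10 genes called was 9 to 9 for OIS against Grow, 5 to 7 for OIS-shA1 against OIS (7 without OIS replicate 4, where SRF was also called at -0.16), 4 to 5 for Grow-shA1 against Grow, 4 to 5 for the shA1 by OIS interaction, 6 to 7 for OIS-v-v against Grow-v-v, 4 to 4 for shCEBPB, 0 to 1 for shp53, 3 to 4 for both hairpins and 2 to 3 for H1299-shA1. For shp53, against 0 called, DESeq2 called 2, library sizes alone 1, the replicate block 5, replicates 1 to 3 gave 6 and replicates 4 and 5 gave 2 (NR4A3 and EGR4, which passed the count filter there). For both hairpins, against 3 called, the replicate block, replicates 1 to 3 and replicates 4 and 5 each gave 5, the last with EGR4. For shCEBPB, replicates 1 to 3 gave 7 against 4. At an adjusted p under 0.01, 2 remained of 5 for the shA1 by OIS interaction and 1 of 2 for H1299-shA1. With the replicate block, the calls over all genes rose from 2290 to 4270 for shCEBPB and from 6 to 104 for the interaction of shCEBPB with shp53. In the HMGA1 and H1299 experiments, the calls over all genes with the block were 0.86 to 1.04 times those without.

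Signs changed only for values that had not been called. In OIS against Grow, NAB2 was 0.0066 with upper-quartile factors and 0.16 with library sizes alone. In OIS-shA1 against OIS, NR4A1 was -0.065 with library sizes alone, -0.017 with the replicate block and -0.11 to 0.11 with 1 library left out. Replicates 1 to 3 gave -0.048 for EGR2 in OIS-v-v, 0.013 for EGR2 with shCEBPB (0.039 with library sizes alone), and for SRF -0.035 with shp53 and -0.0055 with both hairpins. Replicates 4 and 5 gave -0.026 for NAB2 in OIS-v-v, -0.024 for NAB1 with shp53 and 0.12 for EGR3 with both hairpins (0.0012 with upper-quartile factors, 0.090 with library sizes alone), and -0.20 for the EGR1 interaction of shCEBPB with shp53 (-0.069 to 0.22 with 1 library left out). In H1299-shA1 the replicate block gave -0.0077 for EGR4, 0.0046 for NR4A1 and 0.11 for NR4A3. With 1 library left out, the ranges were -1.14 to 0.53 for the EGR4 interaction with OIS, -0.048 to 0.13 for NAB2 in OIS-v-v, -0.25 to 0.34 for EGR2 with shCEBPB, -0.012 to 0.027 for SRF with shp53, -0.13 to 0.12 for EGR3 and -0.041 to 0.073 for NAB2 with both hairpins, and in H1299-shA1 -0.082 to 0.069 for EGR4, -0.047 to 0.040 for NAB2, -0.088 to 0.011 for NR4A1 and -0.091 to 0.11 for NR4A3. The causes were not tested. EGR4 had at most 2 counts per library in Grow and Grow-shA1, so its levels there carry a large counting error.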
